A study of Mus musculus with 6 samples.

Results

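Phospholipase A2 (PLA2) enzymes cut the fatty acid from the middle position of a membrane phospholipid and release a free fatty acid, often arachidonic acid, and a lysophospholipid. The 10 PLA2 genes described here are *Pla2g2d*, *Pla2g2e*, *Pla2g2f*, *Pla2g3* and *Pla2g5*, which encode secreted enzymes, and *Pla2g4a*, *Pla2g4b*, *Pla2g4d*, *Pla2g4e* and *Pla2g4f*, which encode cytosolic enzymes of group IV. They are 10 of the 56262 genes listed, and 9 of them are among the 22071 genes with enough counts for the test between genotypes. *Pla2g2e* did not pass this filter on low counts. The genes were picked because gene sets of acyl chain remodelling, to which they belong, were rich in genes that differed between WT and KO in these same samples. Their differences between WT and KO are therefore given as a description, with no test.

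The samples were leg muscles of mouse fetuses at embryonic day 18.5 (E18.5), with 3 WT samples and 3 samples from mice in which the long noncoding RNA *SYISL* was knocked out (*SYISL* KO), and the study asked what *SYISL* does in embryonic muscle. Parents of the same genotype were mated, so WT and KO fetuses had different dams, and genotype and dam cannot be told apart. No treatment separates the groups, the labels do not give the litter of a sample or say whether a sample is 1 fetus or a pool, and p-values measure only the spread between these samples. *SYISL* was found under no symbol in the annotation used, so its loss was not checked here. Each sample held 82054811 to 102233181 counts, and no pair of samples in a genotype agreed within sampling noise, so all 6 were kept. Muscle fibre markers reached a summed level of 16300 to 18400 CPM (counts scaled to the TMM-adjusted library total) in WT and 35400 to 42800 CPM in KO, so muscle RNA was present in every sample.

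Both enzyme classes need calcium, but they use it in different ways. The secreted enzymes are small proteins, held together by disulfide bonds, whose catalytic site holds a histidine next to an aspartate. They act on lipids outside the cell or on the outer membrane. The cytosolic enzymes are larger, carry a lipid-binding C2 domain in most members and work on inner membranes, where *Pla2g4a* supplies arachidonic acid for prostaglandins and leukotrienes. In muscle, the products of PLA2 are best known from membrane repair, inflammation and regeneration, while several members are best known from skin, where they take part in the lipid metabolism of the epidermal barrier.

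The stretch of coding sequence around this histidine and aspartate is what the 5 secreted genes share. It is shown for each of them, 5′ to 3′ on the coding strand, with the codons of the histidine and the aspartate in capitals. Each was found once in the reading frame, by a run of 2 cysteine codons, any 2 codons, the histidine and aspartate codons, any 1 codon and a last cysteine codon, with the third base of each left free, and lies inside 1 coding exon (coordinates of mm10).
Pla2g2f: tgctgccatgccCACGACtgttgc
Pla2g2e: tgttgtcatgccCATGACtgctgc
Pla2g2d: tgctgtcagaagCATGATtgttgc
Pla2g5: tgctgtcagatgCACGACcgttgt
Pla2g3: tgctgccgggaaCACGATcagtgc
The *Pla2g2f* stretch is at chr4:138753348-138753371 on the minus strand, in exon 4 of 5. That of *Pla2g2e* is at chr4:138880671-138880694 on the plus strand, in exon 4 of 5, and that of *Pla2g2d* is at chr4:138779350-138779373 on the plus strand, in exon 3 of 4. *Pla2g5* holds it at chr4:138801434-138801457 on the minus strand, in exon 5 of 6. *Pla2g3* holds it on another chromosome, at chr11:3489785-3489808 on the plus strand, in exon 2 of 7. *Pla2g2e* and *Pla2g2f* were the most alike, with 20 of the 24 bases in common, followed by *Pla2g2d* and *Pla2g5* with 19, and the other pairs shared 13 to 17. The 2 genes with the most similar stretches thus stood at opposite ends of the levels in WT, with *Pla2g2f* the most abundant of the 10 and *Pla2g2e* near the limit of detection.

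Of the 9 PLA2 genes tested, 6 were called lower in KO, none was called higher and 3 were not called, where a gene is called if edgeR gave it an adjusted p below 0.05 and its level differed by more than 1.5-fold. Over all genes tested, 8.39% were called lower and 8.31% higher. Nothing is read from that contrast, because the genes were picked through it. The 6 are *Pla2g2f*, *Pla2g4f*, *Pla2g3*, *Pla2g5*, *Pla2g2d* and *Pla2g4d*. The values of WT and KO did not overlap for 8 of the 9, *Pla2g4e* being the exception, beside 55.9% of all genes tested. The median log2 fold change of KO over WT was -2.05 for the 9 genes and -0.00415 for all genes tested.

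**Figure D1:**
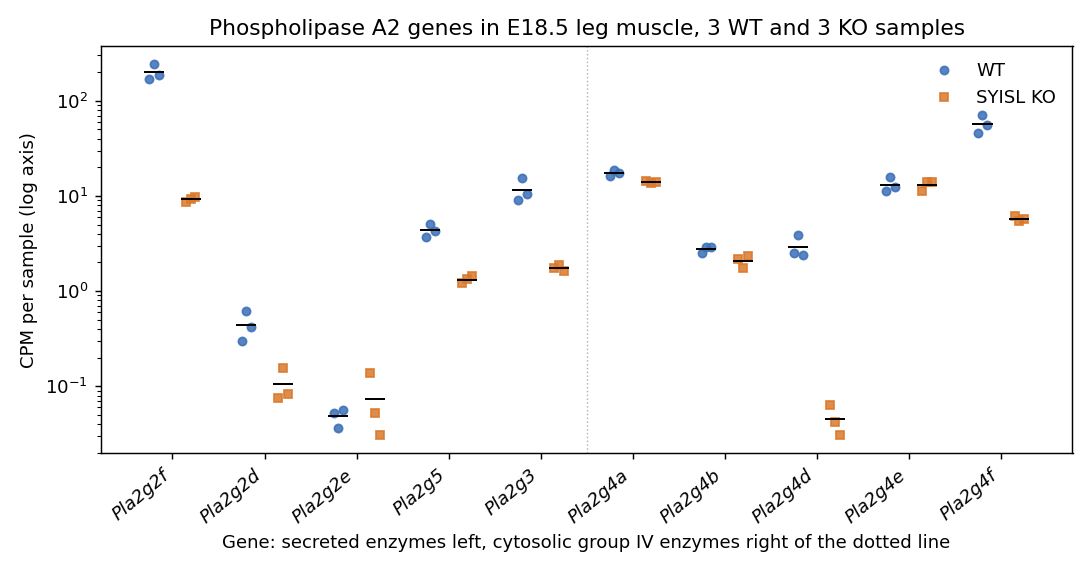
CPM of the 10 PLA2 genes in each of the 3 WT (blue circles) and 3 KO (orange squares) samples, on a log axis, with the mean of each genotype as a black line. *Pla2g2f*, *Pla2g4f*, *Pla2g3*, *Pla2g5*, *Pla2g2d* and *Pla2g4d* are lower in every KO sample than in every WT sample, with a fitted level 3.29-fold to 62.3-fold higher in WT, while the WT and KO points of *Pla2g4e* overlap.

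*Pla2g2f* encodes a secreted enzyme known from the suprabasal layers of the epidermis, where it acts on plasmalogen lipids. Its level was 168, 241 and 187 CPM in the WT samples and 8.68, 9.30 and 9.77 CPM in the KO samples. The lowest WT sample was far above the highest KO sample, and the WT mean was 199 ± 37.5 CPM and the KO mean 9.25 ± 0.542 CPM (SD, n = 3 each), a difference of -4.43 ± 0.13 (SE) on the log2 scale. The KO samples were also closer to each other than the WT samples were, with a coefficient of variation of 5.86% against 18.9%.

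*Pla2g2d* encodes a secreted enzyme known from dendritic cells of lymphoid tissue, and it was rare here. It had 28, 51 and 44 counts in WT and 7, 15 and 8 counts in KO, or 0.443 ± 0.162 CPM against 0.105 ± 0.0457 CPM (SD, n = 3 each). All 3 KO samples were below all 3 WT samples, by a log2 fold change of -2.05 ± 0.37, the widest error among the tested PLA2 genes. The 6 markers of dendritic and Langerhans cells summed to 1.12 to 1.44 CPM in WT and 1.27 to 1.46 CPM in KO. Of these, 4 were tested and none was called, and *Cd207*, the defining gene of Langerhans cells, was at 0 to 0.0525 CPM.

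*Pla2g2e* encodes a secreted enzyme known from the hair follicle and from fat tissue. It had 5, 3 and 6 counts in WT and 13, 5 and 3 counts in KO. The 2 genotypes overlapped, and a difference was not detectable at this depth. Markers of these cells were higher in KO. The 5 hair follicle keratins found summed to 0.315 to 0.606 CPM in WT and 5.18 to 7.39 CPM in KO, all called higher, and the 6 fat markers summed to 105 to 137 CPM in WT and 340 to 402 CPM in KO, also all called higher.

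*Pla2g5* encodes a secreted enzyme known from heart, fat and macrophages. The WT samples stood at 3.74, 5.06 and 4.30 CPM and the KO samples at 1.21, 1.33 and 1.43 CPM. All WT samples were above all KO samples, with a log2 fold change of -1.72 ± 0.13. The 6 macrophage markers went the other way, with a summed level of 223 to 235 CPM in WT and 353 to 387 CPM in KO, and 4 of them were called higher.

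*Pla2g3* encodes a larger secreted enzyme in which the PLA2 domain is flanked by other stretches, known from mast cells and the epididymis. It was at 9.06, 15.5 and 10.5 CPM in WT and at 1.75, 1.86 and 1.62 CPM in KO. WT and KO were well apart, with a log2 fold change of -2.74 ± 0.19, although the WT samples themselves had a coefficient of variation of 28.9%. The 6 mast cell markers were at a summed 1070 to 1210 CPM in WT and 1560 to 1890 CPM in KO, with 4 called higher. Of the exon bases of *Pla2g3*, 8.54% are shared with *Inpp5j* on the opposite strand, and the strand setting of the counts is not given in the sources used here.

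Among the cytosolic enzymes, *Pla2g4f* had the highest level in WT. It encodes cPLA2 zeta, and its level was 46.4, 71.4 and 55.1 CPM in WT against 6.10, 5.49 and 5.78 CPM in KO. The genotypes were fully apart, at 57.6 ± 12.7 and 5.79 ± 0.308 CPM (SD, n = 3 each), with a log2 fold change of -3.31 ± 0.15.

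*Pla2g4d* encodes cPLA2 delta, best known from inflamed skin, and had the largest difference of the family. It had 239, 319 and 251 counts in WT and 6, 4 and 3 counts in KO. All KO samples were thus close to the floor of 3 counts. The summed counts of 809 and 13 gave a WT to KO ratio of 63.0 after scaling for depth, with a 95% interval of 36.6 to 119 for counting error only (exact binomial), and the log2 fold change was -5.96 ± 0.32. If a gene had to have 10 counts in every sample, neither *Pla2g4d* nor *Pla2g2d* was tested.

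*Pla2g4a* encodes cPLA2 alpha, the enzyme that releases arachidonic acid on a rise of calcium. It was at 16.3, 18.9 and 17.4 CPM in WT and 14.5, 13.7 and 14.0 CPM in KO. The KO samples were lower, but by a log2 fold change of only -0.32 ± 0.065, under the fold change of the call. *Pla2g4b*, which encodes cPLA2 beta, was at 2.52, 2.93 and 2.88 CPM in WT and 2.2, 1.76 and 2.33 CPM in KO, with a log2 fold change of -0.40 ± 0.12. Its value is uncertain, because 66.5% of its exon bases overlap the readthrough gene *Gm28042* on the same strand, which had 1 to 4 counts per sample. With no threshold on the fold change, *Pla2g4a* and *Pla2g4b* would be called lower too, which makes 8 of 9, beside 23.1% of all genes tested.

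*Pla2g4e* encodes cPLA2 epsilon, which moves acyl chains onto phosphatidylethanolamine to form precursors of the endocannabinoid-like ethanolamides. It was at 11.2, 15.9 and 12.3 CPM in WT and 11.3, 14.1 and 14.0 CPM in KO. The 2 ranges overlapped almost entirely, with means of 13.1 ± 2.46 and 13.1 ± 1.60 CPM (SD, n = 3 each) and a log2 fold change of 0.00 ± 0.13. That value lay between -0.10 and 0.16 over the other settings tried, so it has no stable sign.

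Since a long transcript collects more counts, levels of different genes were compared per length, as RPKM over the merged exons. In WT, *Pla2g2f* stood first with 80.6 ± 15.2 RPKM (SD, n = 3), then *Pla2g4f* with 18 ± 3.96 RPKM, and no other gene of the family exceeded 3.30 RPKM in any sample. *Pla2g4a* (2.74 RPKM), *Pla2g3* (2.49 RPKM), *Pla2g4e* (1.88 RPKM) and *Pla2g5* (1.51 RPKM) followed as group means, and each of these neighbours overlapped with the next over the samples. *Pla2g4d* (0.792 RPKM), *Pla2g4b* (0.476 RPKM), *Pla2g2d* (0.198 RPKM) and *Pla2g2e* (0.0531 RPKM) came last, each below all samples of the gene before it.

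The order was different in KO. *Pla2g2f* was still first at 3.75 ± 0.22 RPKM, but *Pla2g4a* came next at 2.2 ± 0.0596 RPKM, and *Pla2g4e* and *Pla2g4f*, at 1.89 and 1.81 RPKM, could not be ordered. *Pla2g4d* came last, at 0.0124 ± 0.00458 RPKM. The neighbours *Pla2g3* and *Pla2g4b* overlapped as well, as did *Pla2g2e* and *Pla2g2d*. Summed over the 10 genes, the samples had 91.5, 132 and 103 RPKM in WT and 10.7, 11.0 and 11.3 RPKM in KO.

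The make-up of this sum was nearly the same in the 3 samples of a genotype. *Pla2g2f* made up 74.6%, 73.9% and 74.0% of it in WT and 33.0%, 34.4% and 35.1% in KO. *Pla2g4a* made up 2.56 ± 0.288% in WT and 20.1 ± 0.986% in KO, and *Pla2g4e* 1.73 ± 0.0177% and 17.2 ± 1.76% (SD, n = 3 each), although neither had a higher level in KO by the call. *Pla2g4f* had a share of 16.5% in both genotypes, as its level was lower in KO to about the same degree as the sum. *Pla2g2f*, *Pla2g4a*, *Pla2g4e* and *Pla2g4f* were thus the main contributors in KO.

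**Figure D2:**
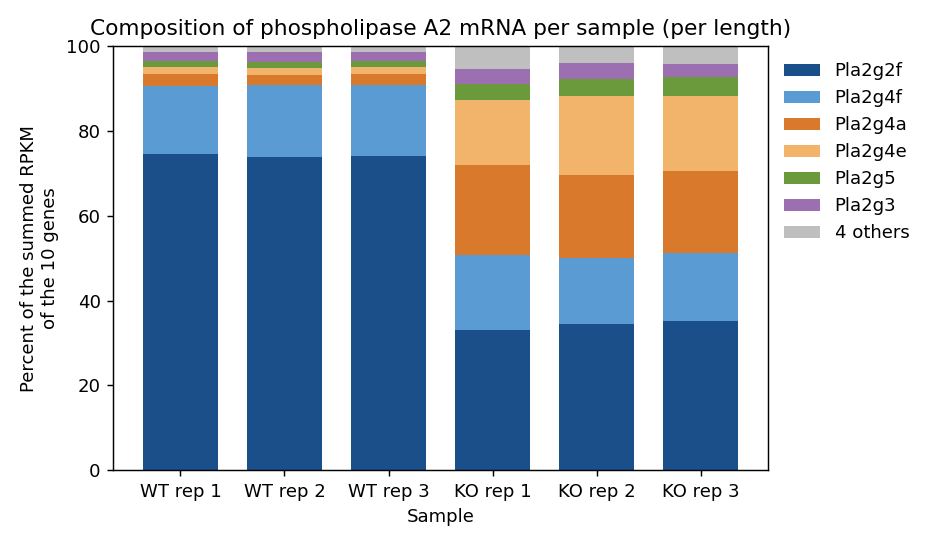
Share of each PLA2 gene in the summed RPKM of the 10 genes, as stacked bars in percent for each of the 3 WT and 3 KO samples, with the 4 rarest genes joined. *Pla2g2f* takes 73.9% to 74.6% in WT and 33.0% to 35.1% in KO, and *Pla2g4a* and *Pla2g4e* take the larger part of the difference.

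Markers of the epidermis moved with the 6 lower genes. The 6 basal keratinocyte markers, such as the keratins *Krt5* and *Krt14*, summed to 1650 to 1940 CPM in WT and 358 to 448 CPM in KO. The 6 suprabasal markers, led by *Krt1* and *Krt10*, summed to 14400 to 21900 CPM in WT and 335 to 506 CPM in KO, and the 6 granular markers, which include loricrin (*Lor*) and involucrin (*Ivl*) of the cornified envelope, to 2080 to 3000 CPM in WT and 132 to 178 CPM in KO. All 18 were called lower, with a median log2 fold change of -2.15, -4.89 and -3.91 for the 3 lists. Their part in the differences of the PLA2 genes was not tested. In WT the suprabasal sum was near that of the muscle fibre markers (16300 to 18400 CPM), and in KO it was far below it (35400 to 42800 CPM). The labels name leg muscle only and do not say how much skin a sample held. In bulk tissue, a differing amount of skin in the sample, fewer cells of a type and less RNA per cell cannot be told apart.

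Endothelial markers (627 to 656 CPM in WT, 723 to 763 CPM in KO) and fibroblast markers (28400 to 31500 CPM in WT, 34600 to 35700 CPM in KO) were called in none of 6 genes each, and 5 of the 6 muscle fibre markers were called higher.

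The PLA2 genes were chosen by the differences between WT and KO in their gene sets, measured in these same samples. They were not selected on how the WT samples differ among themselves, but the order within WT is not independent of that choice. The keratinocyte markers were all called lower in KO, and most of them also shared an order within WT. A choice by lower levels in KO can therefore bring this order with it, and nothing is read from its frequency beside all genes. WT replicate 2 was the highest WT sample for all 9 tested PLA2 genes, and WT replicate 1 was the lowest for 8 of them, with *Pla2g4d* lowest in replicate 3. The same order was seen for 15 of the 18 keratinocyte markers, and for 25.5% of all genes tested. Replicate 2 exceeded replicate 1 by 1.43-fold for *Pla2g2f*, 1.54-fold for *Pla2g4f*, 1.71-fold for *Pla2g3* and 1.42-fold for *Pla2g4e*, beside 1.18-fold for the summed basal, 1.51-fold for the suprabasal and 1.44-fold for the granular markers. *Pla2g4a* and *Pla2g4b* varied less, by 1.16-fold each. The order was not particular to keratinocytes, as the summed markers of dendritic and Langerhans cells (1.29-fold) and of fibroblasts (1.11-fold) had it too. Macrophage, mast and endothelial markers differed by 1.01-fold to 1.02-fold between these samples, and muscle fibre markers by 0.883-fold. *Pla2g4e* thus followed the order of the keratinocyte markers within WT but was level between WT and KO, where these markers were not. WT replicate 2 also had the lowest depth, at 82054811 counts. With 3 samples the order of WT replicates is a description, and it has no test.

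**Figure D3:**
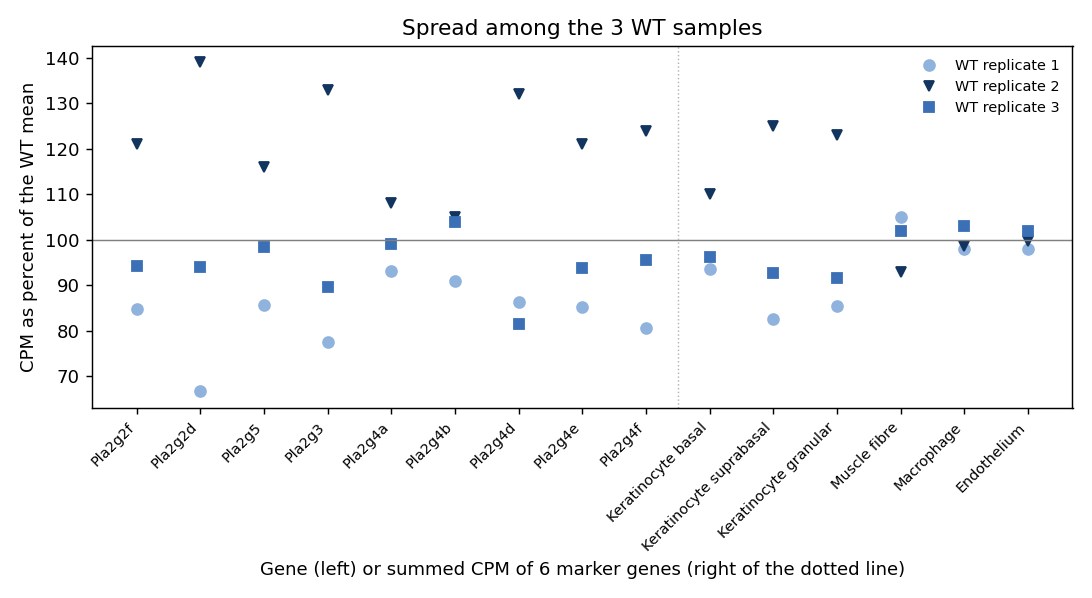
CPM of the 9 tested PLA2 genes (left) and summed CPM of 6 marker genes per cell type (right) in the 3 WT samples, in percent of the WT mean. WT replicate 2 (dark triangles) is highest for each PLA2 gene and for the 3 keratinocyte lists, and it is lowest for the muscle fibre markers, at 92.8%.

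The PLA2 genes were also set against the granular keratinocyte markers of the same sample. Per 1000 CPM of these markers, *Pla2g2f* stood at 80.9, 80.2 and 84.1 CPM in WT and 65.6, 52.2 and 56.2 CPM in KO. The spread among WT samples was thereby small, and the KO samples were lower on this granular scale. *Pla2g4d* was lower in KO on this scale as well, at 1.21, 1.29 and 1.07 CPM in WT against 0.484, 0.236 and 0.177 CPM in KO. The others went the other way, with *Pla2g4f* at 22.3, 23.8 and 24.7 CPM in WT and 46.1, 30.8 and 33.2 CPM in KO, and *Pla2g4e* at 5.36, 5.29 and 5.52 CPM in WT and 85.2, 79.3 and 80.5 CPM in KO. Within WT the level of *Pla2g4e* per granular marker therefore hardly varied. Between genotypes this ratio differed greatly because the markers did (2080 to 3000 CPM in WT, 132 to 178 CPM in KO). The mean of *Pla2g4e* itself was 13.1 CPM in both. Any gene that fell less than the granular markers, or did not change, is higher in KO on this scale. Scaled to the basal markers instead, *Pla2g5* was at 2.27, 2.60 and 2.54 CPM in WT and 2.69, 3.54 and 3.99 CPM in KO, higher in KO as on the granular scale but lower in KO without scaling. *Pla2g3* and *Pla2g4f* were lower in KO per basal marker and higher per granular marker. The suprabasal markers gave another picture for *Pla2g2f*. Their sums were 14400, 21900 and 16200 CPM in WT and 335, 506 and 483 CPM in KO. *Pla2g2f*, at 168, 241 and 187 CPM in WT and 8.68, 9.30 and 9.77 CPM in KO, differed by a smaller factor. On a suprabasal scale *Pla2g2f* was therefore higher in each KO sample than in each WT sample, opposite to the granular scale.

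**Figure D4:**
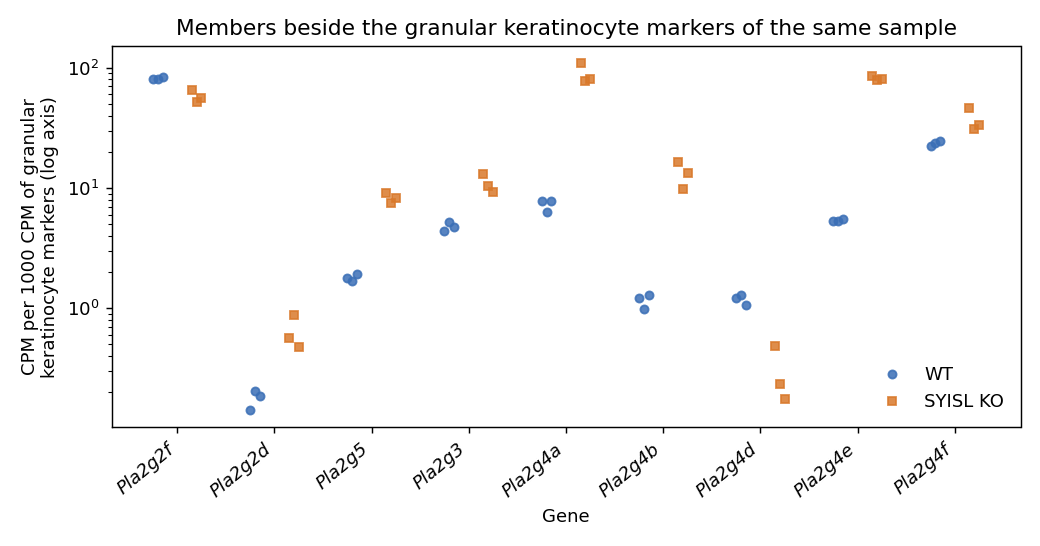
CPM of the 9 tested PLA2 genes per 1000 CPM of the 6 granular keratinocyte markers in the same sample, on a log axis, for 3 WT (blue circles) and 3 KO (orange squares) samples. On this scale only *Pla2g2f* and *Pla2g4d* are lower in KO, and *Pla2g4a*, *Pla2g4b* and *Pla2g4e* are the farthest above WT. Any gene that fell less than the markers, or did not change, stands above WT here.

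For each of the 9 tested genes, the 3 genes with the nearest profile over the 6 samples were taken, by the Euclidean distance of centred log2 CPM among genes with a mean of at least 1 CPM. For *Pla2g2f* the nearest were *Perp* and *Il1rn* (distance 0.150 and 0.159). For *Pla2g4f* they were *Klk13*, *Evpl* and *Prom2* (0.0882 to 0.130), and for *Pla2g3* they were *Gldc*, *Srcin1* and *Krt78* (0.132 to 0.146). *Pla2g5* had *Col17a1*, *Adh1* and *Cldn1* beside it (0.162 to 0.173), of which *Col17a1* is one of the basal markers above. *Pla2g2d* was nearest to *Tns4*, *Il1r2* and *Mpig6b* (0.494 to 0.590), and *Pla2g4d* to *Upk3b*, *Ereg* and *Urah* (0.631 to 0.644), at larger distances than the other members. *Pla2g4a* was nearest to *Adgrl2*, *Grk2* and *Tmem63b* (0.0380 to 0.0498), *Pla2g4b* to *Slc7a3*, *Gm47071* and *Clba1* (0.133 to 0.170), and *Pla2g4e* to *Cox11*, *1700048O20Rik* and *Gm7517* (0.109 to 0.176). For the 6 lower genes, the profile is mostly the difference between WT and KO, through which the genes were picked. Near genes thus had a similar log2 fold change, such as -4.4 for *Perp* beside -4.43 for *Pla2g2f*, and -1.71 for *Col17a1* beside -1.72 for *Pla2g5*. *Upk3b*, at -5.2, was less close to *Pla2g4d*, at -5.96. These likenesses rest on 6 samples, are a description and carry no test.

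Of the 10 genes, 8 lie in 2 clusters. The cluster at chr4:138750533-138882817 (132.3 kb) holds *Pla2g2f*, *Pla2g2d*, *Pla2g5* and *Pla2g2e* in this order, of which the first 3 were lower in KO. *Pla2g2c* and *Pla2g2a*, secreted PLA2 genes of the same stretch, had 0 to 14 counts per sample. The tested genes within 100 kb of the cluster, *Ubxn10*, *Otud3* and *Tmco4*, had log2 fold changes of 0.26, 0.02 and 0.20 and were not called. The cluster at chr2:120033417-120314165 (280.7 kb) holds *Pla2g4b*, *Pla2g4e*, *Pla2g4d* and *Pla2g4f*. Here, too, the 7 other genes tested were not called, with log2 fold changes from -0.25 (*Jmjd7*) to 0.52 (*Ganc*), and with *Ehd4*, which lies between *Pla2g4b* and *Pla2g4e*, at 0.40. *Pla2g3* (chr11:3488284-3499350, plus strand) and *Pla2g4a* (chr1:149829618-149961290, minus strand) stand alone.

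*Pla2g4e* and *Pla2g4f* lie on the same strand of that cluster, but 1 was level between genotypes and the other was 9.95-fold higher in WT. The 100 bases before their transcription starts (RefSeq, GRCm38.p6, minus strand) are shown, and they lie outside the GENCODE span of the gene itself. Cover by other genes was not checked. They run at chr2:120245336-120245435 for *Pla2g4e* and chr2:120314166-120314265 for *Pla2g4f*.
Pla2g4e: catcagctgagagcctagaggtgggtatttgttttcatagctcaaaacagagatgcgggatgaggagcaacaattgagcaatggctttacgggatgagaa
Pla2g4f: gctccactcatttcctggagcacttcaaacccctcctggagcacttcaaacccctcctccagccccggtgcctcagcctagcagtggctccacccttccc
Neither these bases nor the rest of the 250 bases before each start held the letters of AP-1 (TGANTCA), the TATA box (TATAAA), grainyhead (AACCNGTT) or an E-box (CACGTG) on either strand. Of 32851 windows of that length in the same table, 6.75%, 12.4%, 1.79% and 6.02% held them. *Pla2g4d*, the neighbour between them, held TATAAA once, at position -31 from its RefSeq start. Of the 250 bases before that start, 128 lie inside the GENCODE gene, so the 2 annotations place its start differently. RefSeq windows were at hand for 8 of the 10 genes, not for *Pla2g3* and *Pla2g4b*.

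Other genes of the PLA2 reaction, 1 receptor among them, were called in both directions. Of these 13 genes, 8 were tested, with 2 called lower, 3 called higher and a median log2 fold change of 0.17. That is 62.5% called, beside 16.7% of all genes tested. Most of them belong to the same gene sets, and all are also given without a test. Lower were *Plb1*, a phospholipase B of epithelia (9.07 ± 0.916 CPM in WT, 3.98 ± 0.274 CPM in KO), and *Pla2g4c*, a cytosolic enzyme without the C2 domain (4.04 ± 0.584 and 2.33 ± 0.00705 CPM). Higher were *Pla2g7*, which breaks down platelet-activating factor (10.3 ± 0.419 and 16.7 ± 0.218 CPM), *Pla2g16* of fat cells (20.9 ± 0.533 and 33.6 ± 4.71 CPM) and *Pla2r1*, a receptor for secreted PLA2 (4.45 ± 0.204 and 7.11 ± 0.293 CPM, SD, n = 3 each).

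The acyltransferases that put a fatty acid back onto a lysophospholipid complete the remodelling cycle. Of 10 tested, *Mboat2* was called lower and *Lpcat3* higher, and 8 were not called, or 20% called beside 16.7% of all genes, and the median log2 fold change was -0.02. *Mboat2* stood at 97.4, 132 and 107 CPM in WT and 22.3, 25.3 and 24.3 CPM in KO, which is -2.22 ± 0.10 on the log2 scale. *Lpcat3*, the main liver and gut enzyme for arachidonate-rich phosphatidylcholine, stood at 34.9, 33.7 and 36.2 CPM in WT and 55.8, 56.1 and 55.2 CPM in KO, or 0.67 ± 0.039 on the log2 scale. Neither gene had overlapping genotypes, which holds for 55.9% of all genes tested.

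Downstream of PLA2, arachidonic acid is turned into eicosanoids, and these genes were not part of the choice. Of 33 eicosanoid genes tested, 8 fell, 6 rose and 19 were not called (edgeR quasi-likelihood test, adjusted over all genes tested), 42.4% called beside 16.7% of all genes, and their median log2 fold change was 0.32. The 10 enzymes of the lipoxygenase and leukotriene routes were split, with 4 lower and 3 higher, or 70% called beside 16.7% of all genes. The 4 were lipoxygenases, and the 3 were *Alox5*, *Alox5ap* and *Ltc4s* of the leukotriene route, of which the last 2 are named after their values were seen.

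*Alox12b* and *Aloxe3*, the pair of epidermal lipoxygenases needed for the water barrier of the skin, fell most. *Alox12b* was at 136, 226 and 163 CPM in WT and 8.59, 9.64 and 9.34 CPM in KO (log2 fold change -4.25 ± 0.18, adjusted p = 1.51e-07 in edgeR). *Aloxe3* was at 84.5, 134 and 97.7 CPM in WT and 20.8, 17.4 and 18.3 CPM in KO (log2 fold change -2.48 ± 0.15, adjusted p = 1.69e-06 in edgeR). In both genes WT replicate 2 was again the highest WT sample and replicate 1 the lowest. *Alox12* fell as well, from 21.1 ± 3.59 to 5.08 ± 0.481 CPM (adjusted p = 1.47e-06), as did *Alox12e*, from 2.31 ± 0.305 to 0.938 ± 0.190 CPM (adjusted p = 0.000198, edgeR). *Alox5*, which starts leukotriene synthesis in white blood cells, rose from 2.53 ± 0.215 to 4.27 ± 0.138 CPM (adjusted p = 0.000104, edgeR). Keratinocyte and macrophage markers moved in the same directions as these lipoxygenases and *Alox5*, and their part was not tested.

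Of the 10 genes of prostanoid synthesis, 2 fell, none rose and 8 were not called, and these 20% called are near the 16.7% of all genes. *Ptgs1*, the constitutive cyclooxygenase, was at 30.1, 36.9 and 33.1 CPM in WT and 12.6, 11.8 and 12.5 CPM in KO (log2 fold change -1.43 ± 0.076, adjusted p = 5.93e-07 in edgeR). *Ptgs2*, the inducible form, was at 1.35, 1.09 and 1.33 CPM in WT and 1.19, 1.72 and 1.37 CPM in KO, with overlapping genotypes (log2 fold change 0.18 ± 0.16, adjusted p = 0.392 in edgeR). The other gene that fell was *Ptges*, a prostaglandin E synthase (23.5 ± 1.59 to 15.2 ± 0.965 CPM, adjusted p = 7.21e-05 in edgeR), which is named after its value was seen.

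Of the 13 eicosanoid receptors, 2 fell, 3 rose and 8 were not called, or 38.5% called beside 16.7% of all genes. Their median log2 fold change was 0.52. *Ltb4r2*, the second receptor for leukotriene B, was at 1.90, 2.08 and 1.92 CPM in WT and 0.608, 0.451 and 0.596 CPM in KO (log2 fold change -1.83 ± 0.14, adjusted p = 6.67e-06 in edgeR). The other was *Ltb4r1*, whose mean of 0.9999 CPM lies just under the minimum of 1 CPM for naming a gene, and those that rose were *Ptger2*, *Cysltr1* and *Cysltr2*. These 4 are named after their values were seen.

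**Figure D5:**
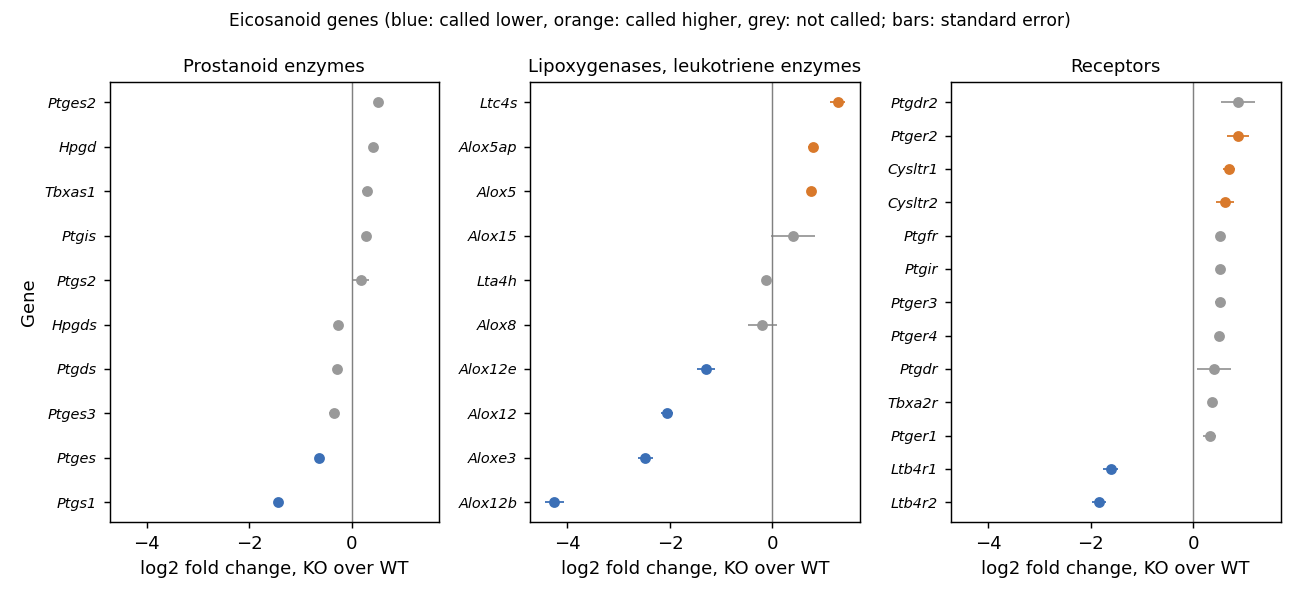
Log2 fold change of KO over WT with its standard error for 33 eicosanoid genes, in 3 panels for prostanoid enzymes, lipoxygenases with leukotriene enzymes, and receptors, with genes called lower in blue, called higher in orange and not called in grey. *Alox12b* is farthest to the left at -4.25, and *Ltc4s* is farthest to the right at 1.27.

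Lysophospholipids, the other product of PLA2, are sensed, made or broken down by a further 13 genes, of which 4 fell, 1 rose and 8 were not called (38.5% called beside 16.7% of all genes), and their median log2 fold change was 0.00. *Gdpd3* and *Gdpd1*, which encode lysophospholipase D enzymes, fell from 15.0 ± 2.17 to 4.18 ± 0.157 CPM (adjusted p = 9.04e-07) and from 19.2 ± 2.23 to 7.31 ± 0.673 CPM (adjusted p = 3.58e-06, edgeR). *Lpar2*, a receptor for lysophosphatidic acid, fell from 4.84 ± 0.332 to 2.36 ± 0.249 CPM (adjusted p = 2.97e-05, edgeR). Its relative *Lpar5*, with a mean under 1 CPM over the 6 samples and named after its value was seen, fell from 1.34 ± 0.438 to 0.276 ± 0.0610 CPM (adjusted p = 0.000116, edgeR). *Ptafr*, the receptor for platelet-activating factor, rose from 1.59 ± 0.137 to 2.63 ± 0.302 CPM (SD, n = 3 each, adjusted p = 0.000899 in edgeR). Whether any of these differences is unlike that of the PLA2 genes was not tested.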

How the data were processed

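RNA-seq counts of 3 WT and 3 *SYISL* KO leg muscle samples were used. According to the submitters' processing notes, the authors used Trim Galore 0.6.6, HISAT2 2.2.1 and featureCounts 2.0.1 with the mm10 genome. The authors deposited unnormalized whole-number counts for each gene. Neither the annotation nor the strand setting is given in the sources used here, nor is whether pairs were counted once. Without strand, reads of genes that overlap on opposite strands cannot be told apart. Genes that resemble each other, as the PLA2 genes do, can also lose reads that map to several places.

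Counts were analysed in R 4.3.3 with edgeR 4.0.16 (filterByExpr, TMM normalization, quasi-likelihood F-test on genotype), and the Benjamini-Hochberg adjustment ran over 22071 genes. Genes with an adjusted p below 0.05 and more than 1.5-fold apart were called. The depth was 82054811 to 102233181 counts per sample. CPM use TMM-scaled totals of 82635357 to 105554877, so that 3 counts are 0.0284 to 0.0363 CPM. RPKM are CPM per 1000 bases of merged exons. Fold changes of genes with few counts depend on the prior count of edgeR. The standard error (SE) of a log2 fold change was back-calculated, as its absolute value over the square root of F in the F-test. It thus restates that F-test, and for the PLA2 genes it is given as a description. Symbols came from GENCODE M21 by Ensembl ID, which held 55141 of 56262 IDs and all 10 PLA2 genes. GENCODE gave the coding stretches by exon position, and RefSeq gave the upstream windows. The fit was tested on simulated data. Alternatives were RLE, upper-quartile and no scaling factors, DESeq2 1.42.0, limma-voom (limma 3.58.1), other filters and thresholds, a replicate block and leaving out each sample.

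The members, the lists and the tests were chosen with earlier results of these data known. Named are the 10 members with the 3 nearest profiles of each tested member and, from each other list, up to 6 called genes that averaged at least 1 CPM, largest fold changes first, with *Pla2r1*, *Ptgs1*, *Ptgs2*, *Alox5*, *Alox12b* and *Aloxe3* in any case. For *Pla2g2f*, 1 of the 3 nearest profiles is not reported here. Genes outside this rule are said to be named after their values were seen. Marker lists are given by their sums, and marker genes are named to define a list.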

Additional observations from a re-analysis of the deposited data

How the results depend on the processing

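The 6 PLA2 genes called lower were called under each other scaling, DESeq2, limma-voom, the fit with no filter, a fold change over 2, the replicate block and each left-out sample. Of 16 alternatives, 2 gave another count, 4 with 10 counts required in every sample and 8 with no fold-change threshold. Leaving out a sample gave 3351 to 3877 calls over all genes, 6 among the members, 5 to 6 among other PLA2 genes, 2 to 3 among acyltransferases, 13 to 14 among eicosanoid genes and 5 to 6 among lysophospholipid genes. With no fold-change threshold, the calls were 9936 over all genes, 6 acyltransferases, 27 eicosanoid and 8 lysophospholipid genes. With a fold change over 2 they were 2043 over all genes, 1 other PLA2 gene, 1 acyltransferase and 8 eicosanoid genes. The named genes had 390 alternative values over 28 genes, without the changed fold-change thresholds and without settings in which a gene was not tested. Among these values, no called gene changed its direction, and no named eicosanoid or lysophospholipid gene changed its call. For the named PLA2 genes and acyltransferases, the call was not compared in these values. A move beyond the replicate spread was looked for only in the named PLA2 genes and acyltransferases, not in the eicosanoid and lysophospholipid genes. It was found for 6 values (*Lpcat3*, *Pla2g7* and *Pla2r1* under upper-quartile and no scaling factors). Scaling by library size alone or by the upper quartile put the median of all genes at -0.073 and 0.064.

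WT and KO samples share replicate numbers, but nothing says that a number marks a litter, and same-numbered samples deviated together with correlations of -0.20, -0.13 and 0.05, so they were not treated as paired. With a replicate block, 3521 genes were called (1777 lower, 1744 higher) instead of 3687, 6 of them members. Depth limits the genes near the floor, *Pla2g2e* in both genotypes and *Pla2g4d* in KO, for which intervals cover counting error only. The deposited counts hold no read-level data, so reads shared between related genes could not be examined.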
